A study of Mus musculus with 12 samples.

Results

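The values below describe gene expression at postnatal day 15 in the lumbar dorsal root ganglia of control mice, the clusters of sensory neurons beside the spinal cord. Members were the 6 samples titled as controls, out of 12 in the series. All were labelled wildtype, aged 15 days, and of a mixed C57/BL6;129Ola strain, and the labels name no allele or agent for them. In each sample, RNA of pooled ganglia from lumbar levels 3 to 6 was labelled with biotin and hybridised to one array of an Illumina mouse BeadChip. The number of mice in a pool and their sex are not given, so the spread between samples is a spread between pools that may be partly technical. Replicates 1 to 3 were on one BeadChip and replicates 4 to 6 on another, per the array identifiers, and are called pools 1 to 6 here.

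Dorsal root ganglia hold the cell bodies of neurons that carry touch, limb position, temperature, pain and itch to the spinal cord. Large neurons with myelinated fibres carry touch and limb position, small neurons carry pain, temperature and itch, and satellite glia wrap each cell body while Schwann cells wrap the fibres. The ganglion is also well supplied with vessels, holds resident macrophages and lies in a sheath continuous with the meninges.

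An array reports, for each probe, an intensity and a detection p-value, taken here to compare the probe with that array's negative controls. Between 12894 and 13407 of 25697 probes were detected at p under 0.05 on an array. On all 6 arrays 11782 probes (45.85%) were detected, 3004 were detected on 1 to 5 arrays and 10911 on none. The detection p closest to 0.05 was 0.0489 among the probes kept and 0.0501 among those left out. The kept probes covered 8379 named genes of the 16593 on the array, each represented by its brightest such probe. Levels are background-corrected, quantile-normalized log2 intensities, which averaged 5.33 to 15.1 with a median of 8.37. Arrays correlated at 0.986 to 0.993 over the kept probes, and pool 5 had the lowest mean correlation with the others, 0.987. No array is left out of the values below.

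A level percentile is the share of the 8379 genes whose probe was no brighter. It ranks probes, not transcripts: among 2046 genes with at least 2 kept probes, the 2 brightest differed by a median of 1.01 on the log2 scale, and by more than 1 in 1030 genes. The spread of a gene is its standard deviation (SD) over the 6 pools on the log2 scale. The median SD over all genes was 0.15, 10% of genes lay under 0.0801 and 10% over 0.283. Dim probes were more variable, with a median SD of 0.20 in the dimmest 10% of genes and 0.107 in the brightest 10%. In bulk RNA, fewer cells of a type and less RNA per cell cannot be told apart.

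**Figure D1:**
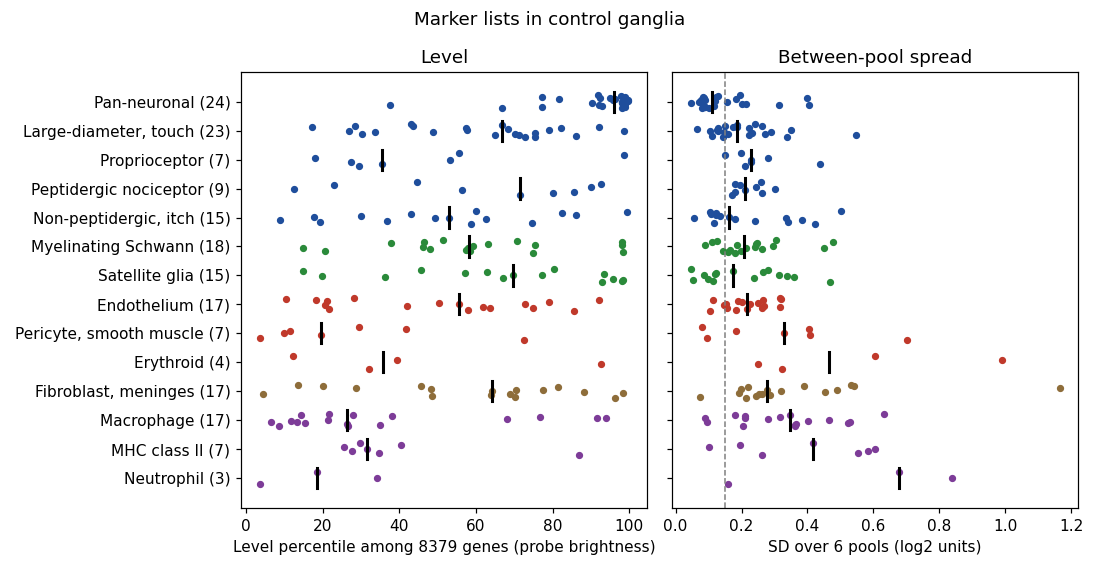
Level percentile (left) and between-pool SD on the log2 scale (right) of the members of the named gene lists detected in all 6 control pools, 1 point per gene with the number of members in brackets, a bar at each list's median and a dashed line at the median SD of all 8379 genes. The sensory neuron list sits among the brightest probes with the least spread of these lists, near that of genes of like level. The neutrophil, macrophage and MHC class II lists sit lower and spread more, and the last also holds other antigen presentation genes.

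Genes of the pan-neuronal and sensory neuron list gave bright signals whose spread was, at the median, near that of genes of like level. The lists of neuron types described below spread more for their level. Among genes of like level, their median SD percentile was 77.6 (touch), 78.8 (proprioceptor), 83.5 (peptidergic) and 55.7 (non-peptidergic and itch). Of 27 genes of the pan-neuronal and sensory neuron list on the array, 24 were detected in all pools, with a median level percentile of 96.1 and a median SD of 0.109. Their SD was above that of the median gene in 8 of 24, where 50% of all genes are so by definition. Sncg, which encodes gamma-synuclein, averaged 14.28 ± 0.12 (SD, n = 6, as for all such values), although averaging all its detected probes in place of the brightest raised the SD to 0.52. Prph, the intermediate filament peripherin, ran from 13.03 to 13.15 with an SD of 0.05, and Stmn2, a tubulin-binding protein of growing axons, averaged 13.94 ± 0.08.

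Both transcription factors that mark developing and mature sensory neurons were present, with different evenness. Pou4f1 (Brn3a) averaged 11.38 ± 0.08. Isl1 had levels of 11.97, 11.46, 11.45, 11.23, 11.96 and 11.84 in pools 1 to 6, an SD of 0.31 that exceeded that of 98.2% of genes of like level. Isl1 was high in pools 1, 5 and 6 and lowest in pool 4. Syt4, a synaptotagmin of secretory vesicles, had 12.51, 11.86, 11.68, 12.60, 12.51 and 11.95, an SD of 0.40 that exceeded that of 99.2% of genes of like level.

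Not every neuronal gene was seen. The probes for Nefl and Snap25 were detected in no pool, and Tubb3, neuronal beta-tubulin, was detected only in pools 1, 3 and 6. A probe at background says nothing about the protein's presence.

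Among genes of large-diameter and touch neurons, 23 of 26 were detected in all pools, with a median percentile of 66.9 and a median SD of 0.185. Nefh, the heavy neurofilament of large fibres, averaged 13.27 ± 0.10 and Scn4b, a sodium channel beta subunit, 11.65 ± 0.19. Piezo2, the channel that senses touch, averaged 10.52 ± 0.13, and Ntrk3, the neurotrophin-3 receptor, 9.48 ± 0.06, with an SD of 0.123 when all its detected probes were averaged. Th, the first enzyme of catecholamine synthesis and a marker of low-threshold C fibres, ran from 7.70 to 8.28 with an SD of 0.24. Of the 23 members, 15 had an SD above that of the median gene.

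Cryba2 and Maf of the touch list were high in the same pools. Cryba2, a crystallin, had levels of 9.82, 8.92, 8.93, 8.82, 9.02 and 10.11 in pools 1 to 6, with an SD of 0.55. It was the only member of the list at an SD of 0.5 or more, which 1.29% of all genes reached. Maf, a transcription factor required for touch neurons in mice, had 7.69, 7.41, 7.37, 7.12, 7.19 and 7.87. Both were highest in pools 6 and 1 and lowest in pool 4. Ntrk2, the receptor for brain-derived neurotrophic factor, had 9.19, 8.58, 8.76, 9.07, 8.27 and 9.03, so it was lowest in pool 5 instead, with an SD of 0.35 that became 0.194 when all its detected probes were averaged. Calb2 (calretinin), in contrast, stayed between 9.77 and 10.12 in all pools but pool 5, where it was 9.13.

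Proprioceptor genes, those of the neurons that report limb position, gave 7 of 10 detected in all pools. Pvalb, the calcium-binding protein parvalbumin, averaged 13.26 ± 0.15 and stood at the 98.6th percentile. Chodl, a membrane lectin, ran from 6.97 to 8.25 with an SD of 0.44, and Etv1, a transcription factor of these neurons, averaged 7.08 ± 0.23. Runx3, which specifies them, was detected in no pool.

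Peptidergic nociceptors, pain neurons that release neuropeptides, were represented by 9 of 11 genes, with a median percentile of 71.4 and a median SD of 0.211. Tac1, the substance P precursor, averaged 11.74 ± 0.18, Gal (galanin) 10.85 ± 0.18 and Adcyap1, the precursor of the peptide PACAP, 9.68 ± 0.17. Trpv1, the heat and capsaicin channel, averaged 8.07 ± 0.26. Calcb, one of the genes for calcitonin gene-related peptide, lay between 10.36 and 10.55 in 5 pools and at 9.82 in pool 5. All 9 members had an SD above that of the median gene.

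The non-peptidergic and itch list had 15 of 22 genes detected in all pools. Its sodium channels were bright: Scn11a (Nav1.9) averaged 13.66 ± 0.10 and Scn10a (Nav1.8) 10.54 ± 0.12. Their SDs lay at the 48.4th and 55.3rd percentile of genes of like level. Ret, the receptor for the glial cell line-derived neurotrophic factor family, averaged 10.88 ± 0.12, P2rx3, the ATP-gated channel, 8.53 ± 0.06, and Mrgprd, a receptor of skin-innervating neurons, 7.63 ± 0.24. P2rx3 was among the evenest, since its SD lay at the 2.4th percentile of genes of like level. Trpa1 and Gfra2 were detected in no pool.

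A smaller group within this list belongs to itch neurons in mice and was uneven between pools. Sst (somatostatin) had levels of 9.43, 8.80, 8.53, 9.33, 9.34 and 8.21, with an SD of 0.50. Il31ra, the receptor for the itch cytokine interleukin 31, had 8.91, 8.54, 8.85, 9.18, 9.50 and 8.33, and its partner subunit Osmr had 8.28, 7.84, 8.23, 8.52, 8.84 and 8.28. Pool 5 was the highest or next to it for all 3 of these genes, and pool 6 was lowest for Sst and Il31ra. Nppb, the natriuretic peptide used by the same neurons, ran from 8.87 to 9.36 with an SD of 0.18.

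Near Sst on chromosome 16, Uts2b, which encodes a urotensin II-related peptide, was high and low in like pools with a wider span. Its levels were 9.22, 6.89, 5.82, 9.27, 8.50 and 5.92, an SD of 1.59 and a range of 10.9-fold. Pools 1, 4 and 5 were high for both genes, and their levels correlated at 0.961 over the 6 pools. Only 3 measured-gene positions separate the pair. Sst is shown with the 120 bases before its start because a cyclic AMP response element, TGACGTCA, stands there (chr16:23890845-23890964, minus strand, GRCm38.p6, RefSeq), in capitals:
Sst: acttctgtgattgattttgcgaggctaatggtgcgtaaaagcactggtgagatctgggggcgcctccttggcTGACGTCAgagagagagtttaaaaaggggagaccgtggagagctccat
Of 32851 such windows, 1.24% hold TGACGTCA on either strand. A match of letters is a description and not a binding site.

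**Figure D2:**
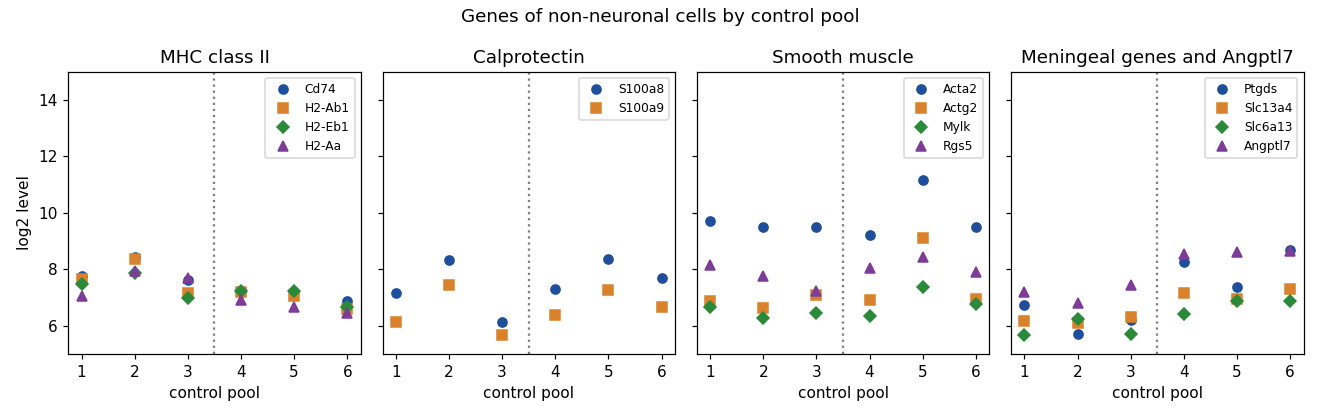
log2 level of single genes in each of the 6 control pools, for genes of MHC class II, calprotectin, smooth muscle and pericytes, and meninges, with a dotted line between the first and second chip. Acta2 and Actg2 stand high in pool 5, the MHC class II genes are highest in pool 2, and S100a8 and S100a9 are highest in pools 2 and 5. The 3 meningeal genes shown, the most variable of the fibroblast and meningeal list, are higher in pools 4 to 6, as is Angptl7.

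Glial genes covered dim to very bright probes. Of 21 genes of myelinating Schwann cells on the array, 18 were detected in all pools, with a median percentile of 58.2 and a median SD of 0.207. Mbp, myelin basic protein, averaged 13.07 ± 0.09, with an SD of 0.173 when all its detected probes were averaged. Averages were, for Pmp22, a compact myelin protein, 13.03 ± 0.11 and, for Cd9, a tetraspanin, 13.19 ± 0.16. The widest spread was in Pmp2, a lipid-binding protein of peripheral myelin, with 8.78, 8.43, 7.66, 8.58, 7.89 and 7.73. Mag, myelin-associated glycoprotein, lay between 8.90 and 9.18 in pools 1 to 5 and at 8.36 in pool 6. The mean deviation of the 18 members from their own means was 0.14, 0.03, -0.12, 0.14, -0.00 and -0.19 in pools 1 to 6, so the list was lowest in pools 6 and 3.

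Of 19 genes of satellite glia and of Schwann cells without myelin, 15 were detected in all pools. Dbi, a binding protein for acyl-coenzyme A, averaged 13.16 ± 0.05, Ednrb, an endothelin receptor, 12.36 ± 0.10, and Cst3, the protease inhibitor cystatin C, ran from 12.86 to 13.12. Against these even genes, Apoe, the lipid carrier apolipoprotein E, had 11.98, 11.80, 11.52, 12.17, 10.95 and 12.16. Apoe was lowest in pool 5, with an SD of 0.47. Fabp7, a fatty acid binding protein of satellite glia, ran from 7.23 to 8.04 and was highest in pools 2 and 3. Gfap was detected in no pool.

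Vessel genes were present at middling levels. Of 23 endothelial genes, 17 were detected in all pools, with a median percentile of 55.6 and a median SD of 0.216. Sparc, a matrix glycoprotein, averaged 11.66 ± 0.11, and Egfl7, secreted by endothelium, 10.82 ± 0.10. Flt1, a receptor for vascular endothelial growth factor, had 8.82, 9.32, 9.59, 9.23, 9.06 and 9.07. Pool 3 was the highest for Flt1 and for 10 of the 17 members. The share of all genes highest in each pool was not counted, so such counts, here and below, have no baseline. Kdr was detected in no pool, and Cdh5, the adhesion protein of endothelial junctions, in pools 2, 3, 5 and 6.

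Some genes of the vessel wall were high in 1 pool. Of 16 pericyte and smooth muscle genes, 7 were detected in all pools. Acta2, smooth muscle actin, had 9.70, 9.48, 9.50, 9.22, 11.15 and 9.49 in pools 1 to 6. Actg2, a second smooth muscle actin, had 6.87, 6.61, 7.08, 6.90, 9.12 and 6.95. In both, pool 5 alone stood clear of the other 5 pools. All 4 Acta2 probes were brightest in pool 5, and Mylk, myosin light chain kinase, was also highest there, at 7.38 against 6.28 to 6.76 in the others. Rgs5, a pericyte regulator of G protein signalling, ran from 7.24 to 8.44 and was highest there as well. Acta2, Mylk and Rgs5 were the only 3 of the 7 list members highest in pool 5, and Cspg4, Notch3, Pdgfrb and Vtn were not, while Actg2 is not on the list. The median SD of the 7 members was 0.33 with all pools and 0.203 without pool 5. Myh11 was detected in 4 pools and Tagln in pools 5 and 6.

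Pool 5 was also highest for 2 red cell genes, and pool 6 was set apart by beta-globin probes only. Hba-a1, an alpha-globin gene with a near-identical copy, had 11.72, 11.65, 11.51, 11.65, 12.22 and 11.64, highest in pool 5. Slc4a1, the anion exchanger of red cells, had 6.00, 6.03, 5.66, 5.69, 7.13 and 6.79, again highest in pool 5 and next highest in pool 6. Alas2, also on the erythroid list, was detected only in pools 2, 5 and 6, at 5.76, 5.78 and 5.72. The beta-globin probe Hbb-bt had 8.09, 8.43, 8.01, 8.07, 8.30 and 5.78, low in pool 6 alone. The probe for Hbb-b2, a beta-globin gene annotated from another haplotype of the locus, was detected only in pool 6, at 7.10, while the other 5 pools lay between 4.73 and 4.95. Of the 4 members detected in all pools, 2 were highest in pool 5. The median SD of the 4 was 0.464, or 0.303 without pool 6.

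Macrophage genes lay low in the range of levels and spread widely. Of 28 on the array, 17 were detected in all pools, with a median percentile of 26.5 and a median SD of 0.349, and 15 of 17 exceeded the median gene's SD. Lgmn, a lysosomal protease, was bright and even at 11.96 ± 0.09. Pf4, platelet factor 4, which macrophages also express, had 7.66, 6.79, 5.94, 6.75, 6.16 and 7.17. Cx3cr1, the fractalkine receptor, had 6.57, 6.29, 5.46, 6.30, 6.03 and 6.47, and C1qb, a complement subunit, 7.88, 7.67, 6.83, 7.65, 7.64 and 7.54. These 3 genes were lowest in pool 3, and 10 of the 17 members were highest in pool 1. The mean deviation of the list was 0.21 in pool 1 and -0.34 in pool 3. Defining markers Ptprc and Itgam were detected in no pool and C1qa in 4 pools.

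Class II genes of antigen presentation by the major histocompatibility complex (MHC) varied together. The list also holds other antigen presentation genes. Of its 13 genes on the array, 7 were detected in all pools, with a median SD of 0.416, and 6 of the 7 were highest in pool 2. The 7 included B2m and H2-D1, which are not class II genes. Cd74, the invariant chain, had 7.76, 8.44, 7.61, 7.20, 7.21 and 6.88. H2-Ab1, a class II beta chain, had 7.65, 8.35, 7.18, 7.18, 7.05 and 6.59, H2-Eb1 had 7.48, 7.87, 6.99, 7.22, 7.23 and 6.65, and H2-Aa had 7.04, 7.93, 7.68, 6.90, 6.65 and 6.44. These 4 were also lowest in pool 6. All 4 probes of H2-Ab1 and both probes of Cd74 were highest in pool 2 and lowest in pool 6. In Cd74 and H2-Aa the pools of the first chip lay above those of the second without overlap, as did 6.06% of all genes, and the SD within chips was 0.341 for Cd74, against 0.552 over all pools, and 0.363 for H2-Aa, against 0.585. Chip and pool cannot be told apart here. The class I light chain B2m, which is not restricted to these cells, was lowest in pool 4, at 10.47, and lay between 10.91 and 11.17 in the others. It counted among the 6 with 11.168 in pool 2 against 11.163 in pool 1.

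Class II promoters share a Y box with the letters GATTGG, and an X box that can hold a cyclic AMP response element. The windows below show the 120 bases before the starts of 2 of the genes that varied together, with GATTGG or its reverse complement CCAATC and TGACGTCA in capitals (H2-Aa chr17:34287824-34287943, minus strand, and H2-Eb1 chr17:34305747-34305866, plus strand, GRCm38.p6, RefSeq):
H2-Aa: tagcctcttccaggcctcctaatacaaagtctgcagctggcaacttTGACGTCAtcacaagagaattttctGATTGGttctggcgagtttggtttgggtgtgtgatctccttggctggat
H2-Eb1: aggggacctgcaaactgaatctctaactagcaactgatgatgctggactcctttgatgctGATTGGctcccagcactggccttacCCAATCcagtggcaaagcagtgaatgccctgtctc
GATTGG stands in both windows, and in 9.67% of the 32851 windows of that length. TGACGTCA stands in the H2-Aa window alone, and no match in a window says only that these letters are not there.

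Neutrophil genes were few but among the most variable. Only 3 of 14 were detected in all pools, with a median SD of 0.678. S100a8 and S100a9, which form the heterodimer calprotectin, had adjacent positions on chromosome 3. S100a8 had 7.14, 8.31, 6.12, 7.29, 8.37 and 7.68, and S100a9 had 6.13, 7.45, 5.68, 6.37, 7.27 and 6.66. Both were high in pools 2 and 5 and lowest in pool 3, and they correlated at 0.973 over the 6 pools. Mpo, the neutrophil peroxidase, and Elane, neutrophil elastase, were detected in no pool, and lymphocyte genes gave 2 of 16, Coro1a at 11.11 ± 0.11 and Cd3e at 6.63 ± 0.21.

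**Figure D3:**
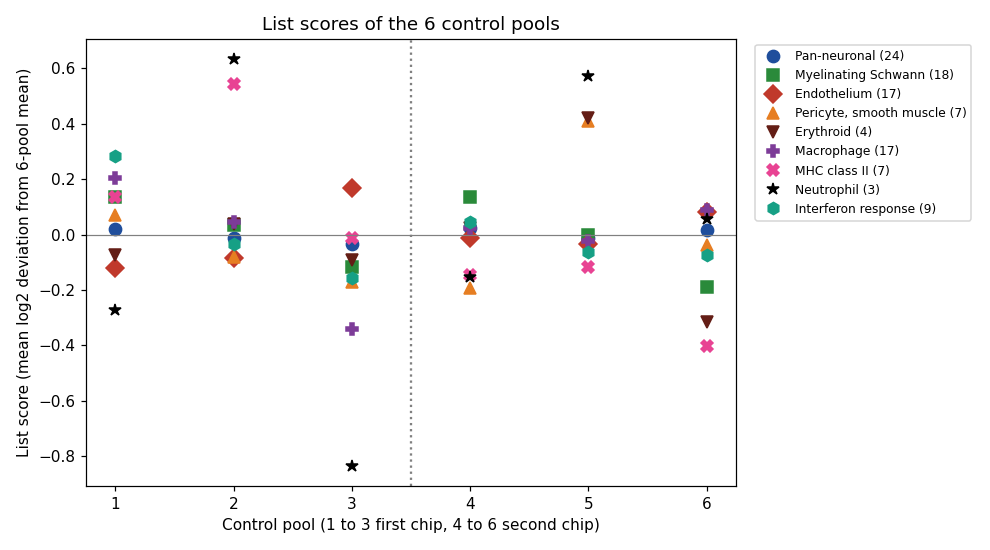
Mean deviation of the members of each list from their own 6-pool means, log2 scale, in each control pool. The MHC class II list, which also holds other antigen presentation genes, is highest in pool 2. The smooth muscle and erythroid lists are highest in pool 5, where 3 of 7 and 2 of 4 members are at their highest. The neutrophil list, of 3 genes, is highest in pools 2 and 5. The sensory neuron list stays within 0.04 of 0 in every pool.

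Connective tissue genes covered dim to very bright probes, and 3 meningeal genes, the most variable of their list, split by chip. Of 25 fibroblast and meningeal genes, 17 were detected in all pools, with a median percentile of 64.3, and 16 of them exceeded the median gene's SD. Dcn, the proteoglycan decorin, averaged 13.12 ± 0.19, and Apod, a lipocalin, 12.43 ± 0.21. Both overlapped between the chips. Dcn had 13.31, 13.09 and 12.91 on the first chip, against 13.28, 13.24 and 12.86 on the second. It was lowest in pool 6, where Ptgds and Slc13a4 were highest, so the 3 meningeal genes below do not stand for the list. Ptgds, prostaglandin D synthase of the meninges, had 6.74, 5.69 and 6.21 on the first chip, against 8.26, 7.38 and 8.67 on the second. Slc13a4, a sulfate transporter of the meninges, had 6.16, 6.10 and 6.31, against 7.17, 6.96 and 7.31, and Slc6a13, a GABA transporter, 5.68, 6.25 and 5.69, against 6.41, 6.87 and 6.86. In all 3 genes the pools of the first chip lay below those of the second without overlap, as did 4.86% of all genes. Cd163, a scavenger receptor of perivascular and meningeal macrophages, did so too, with 6.08, 5.69 and 6.08 on the first chip, against 6.97, 6.78 and 6.84 on the second. Whether these follow the chip or the pools on it cannot be told apart.

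Few genes of neighbouring tissues were detected in every pool, and an undetected probe does not show absence. Of 15 spinal cord and brain genes, Aqp4 and Foxj1 alone were detected in all pools, 5 in some, and Olig2, Mnx1, Slc6a5 and Gad2 in none. Of 17 skeletal muscle genes, 4 were detected in all pools and 6 in some, among the 4 Pvalb, which the proprioceptor list also holds, while Ckm, Myh4 and Ttn were detected in none. Of 16 nerve injury genes, 6 were detected in all pools, and Atf3, the usual injury marker, was detected in pools 2 and 5. Heat shock and cholesterol synthesis genes were detected in full, 12 of 12 and 14 of 14. Of 80 oxidative phosphorylation genes, 71 were detected in all pools, with a median percentile of 93.9 and a median SD of 0.129, and of 59 ribosomal protein genes 53, with a median percentile of 95.1. The brightest probes of all belonged to Tuba1b (15.10 ± 0.05), Tubb5 (14.89 ± 0.10) and Hspa8 (14.80 ± 0.07), 2 tubulins and a constitutive heat shock protein.

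Some interferon-induced genes stood higher in 1 pool. Of 14 on the array, 9 were detected in all pools, of which 4 were highest in pool 1, and their mean deviation was 0.28 in pool 1 and between -0.16 and 0.04 in the others. Usp18, which removes the ubiquitin-like ISG15, had 6.85, 5.63, 5.41, 5.74, 5.83 and 5.53. Ifitm3, an antiviral membrane protein, had 10.14, 9.33, 9.05, 9.41, 9.56 and 9.27, and Gbp3, a guanylate-binding protein, 7.75, 6.95, 6.55, 7.24, 7.19 and 7.04. These are 3 of the 4 that were highest in pool 1. It was also the pool with most macrophage genes at their highest.

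Large spread was rare. A total of 108 of 8379 genes (1.29%) had an SD of 0.5 or more, of which 10 reached 1, and 73 of the 108 lay below the median level. The gene just inside was Art4 at 0.502 and the gene just outside Bckdhb at 0.493. Within chips alone 103 genes reached 0.5, and 80 were in both sets. At the other end, Gfod1 had an SD of 0.01, Wsb1 of 0.02 and Nudc of 0.02, the smallest of the genes above the median level. Nudc stood at the 96.1st level percentile. Without quantile normalization the SD of Gfod1 was 0.0607 and that of Wsb1 0.0621.

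**Figure D4:**
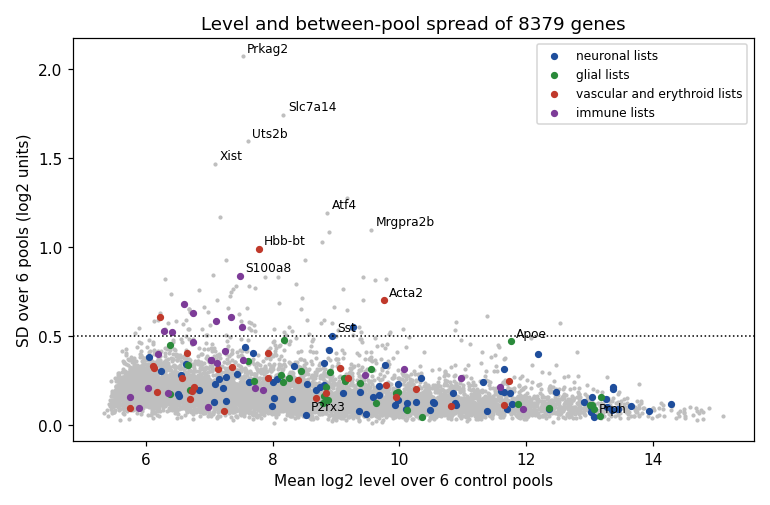
Between-pool SD against mean level on the log2 scale for all 8379 genes in grey, with members of the neuronal, glial, vascular and erythroid, and immune lists in colour and a dotted line at an SD of 0.5. Of the 108 genes on or above the line, 73 lie below the median level, and Prkag2, Slc7a14, Uts2b and Xist stand highest.

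Several of the widest spreads set a few pools apart from the rest. Prkag2, a regulatory subunit of AMP-activated kinase, had 5.53, 9.44, 9.38, 9.42, 5.83 and 5.54, which is 3 pools between 9.38 and 9.44 and 3 between 5.53 and 5.83, a range of 15.0-fold. Slc7a14, a cationic amino acid transporter of lysosomes, had 7.14, 6.74, 10.14, 7.20, 10.66 and 7.14, high in pools 3 and 5 only. Cops8, a subunit of the COP9 signalosome, had 9.25, 10.16, 10.23, 9.22, 9.41 and 6.73, low in pool 6. Klk8, a serine protease, had 9.16, 9.09, 8.86, 9.14, 6.91 and 10.22, low in pool 5 and highest in pool 6. Sema5a, an axon guidance protein, had 9.77, 10.70, 9.97, 10.38, 8.35 and 9.56, low in pool 5.

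**Figure D5:**
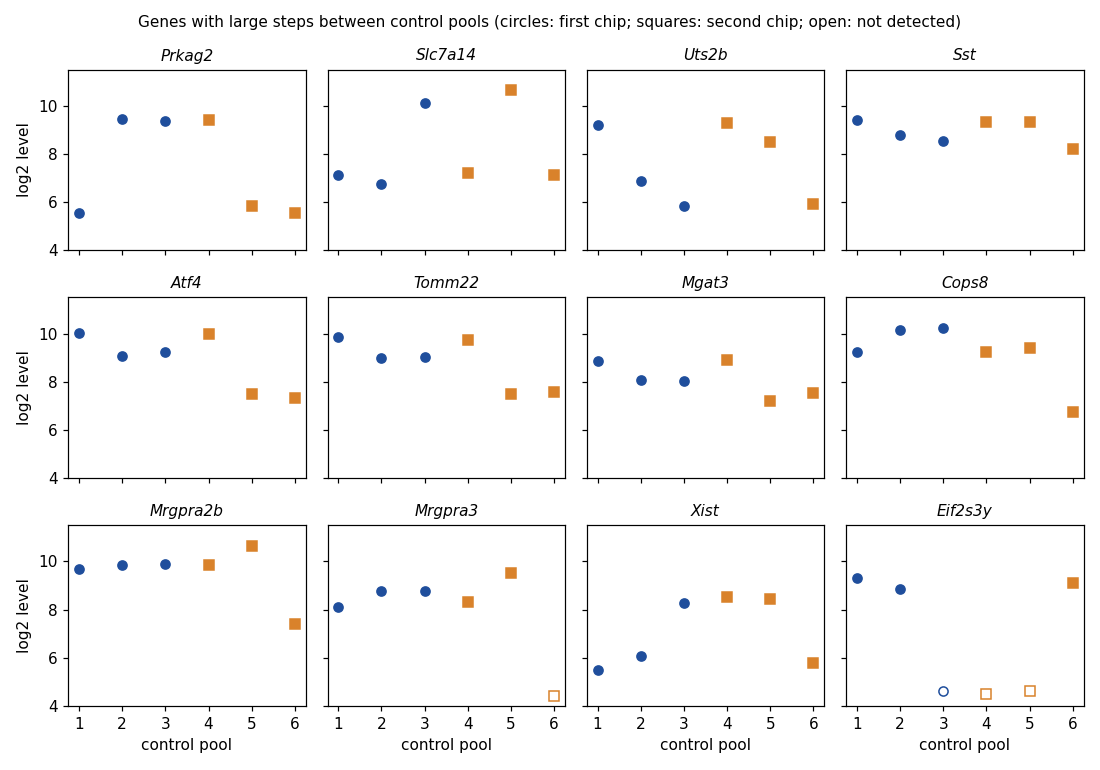
log2 level in each control pool of 12 genes with large or shared differences between pools, circles for the first chip, squares for the second and open symbols where the probe was not detected. Prkag2 sits in 2 separate groups of 3 pools, Slc7a14 is high in pools 3 and 5, Mrgpra2b, Mrgpra3 and Cops8 are low in pool 6, and Xist and Eif2s3y are high in opposite pools.

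The sex-linked genes split the pools into the same 2 sets, in opposite directions. Xist, transcribed from the inactive X chromosome, had 5.48, 6.05, 8.29, 8.53, 8.45 and 5.77. Its second probe was detected in pools 3, 4 and 5 only. The Y-linked Eif2s3y, at 9.33, 8.86, 4.63, 4.51, 4.64 and 9.09, and Kdm5d were detected only in pools 1, 2 and 6. Uty, also Y-linked, was detected in all 6 at 5.64 to 6.26, with its highest in pool 1 and lowest in pool 3. Pools with high Xist had undetected Eif2s3y and Kdm5d and the reverse, and the split differed from that of Prkag2.

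Some genes that neighbour each other on a chromosome varied together. On chromosome 15, Atf4, a transcription factor of the integrated stress response, had 10.03, 9.08, 9.24, 9.99, 7.48 and 7.34, and its neighbour Mgat3, a glycosyltransferase, had 8.84, 8.09, 8.01, 8.90, 7.18 and 7.55. Tomm22, a mitochondrial import receptor 10 measured genes from Mgat3, had 9.84, 8.99, 9.02, 9.74, 7.48 and 7.57. All 3 were lowest in pools 5 and 6 and highest in pools 1 and 4. Mgat3 correlated with Atf4 at 0.945 and with Tomm22 at 0.962 over the 6 pools. Genes that the ATF4 protein is known to induce spanned less: Asns, asparagine synthetase, stayed at 12.72 to 12.92, and Chac1, which degrades glutathione, at 9.50 to 9.80. Atf4 was the 1 member of 17 detected stress response genes with an SD of 0.5 or more.

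Chromosome 8 gave a second such pair in Chrna6 and Chrnb3, adjacent genes for nicotinic acetylcholine receptor subunits. Chrna6 had 8.28, 7.84, 7.83, 9.23, 8.50 and 7.87, and Chrnb3 had 6.29, 5.89, 6.09, 7.33, 6.65 and 5.81, both highest in pool 4, with a correlation of 0.981. On chromosome 18 the pair Arhgap12 and Riok3 ran in opposite directions, at -0.981. In all, 19 pairs among the 108 genes lay within 10 measured genes of each other, with a median absolute correlation of 0.811 and 9 over 0.9. Among all 82640 such pairs of genes, of any spread, the median was 0.377 and 2.13% were over 0.9. Pairs of the 108 genes that lie farther apart were not set beside these, so the part of nearness was not tested. The pairs share the same 6 arrays, and these genes were chosen for their spread, so the correlations are descriptions.

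Some genes low in pool 6 lie on chromosome 7, as was noticed after the values were seen and was not tested. Chromosome 7 held 7.66% of all genes. By the gap rule given below, pool 6 alone was lowest in 41 genes, 7 of them (17.07%) on chromosome 7. It alone was highest in 17 genes, 3 of them (17.65%) there, so the share was not particular to low genes. Klk8, highest in pool 6 at 10.22, also lies on chromosome 7. Mrgpra2b, a Mas-related receptor with close relatives, had 9.69, 9.84, 9.87, 9.84, 10.64 and 7.42, and its relative Mrgpra3 was detected in pools 1 to 5, at 8.11 to 9.52, but not in pool 6, at 4.42. Myo7a, an unconventional myosin, had 6.74, 7.23, 7.18, 7.08, 7.45 and 5.37. Hbb-bt and Mag, described above, also lie on chromosome 7, and by the same rule pool 6 alone was lowest in both. The second detected probe of Mrgpra2b lay at 5.82 to 6.26, with a correlation of 0.325 to the first.

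A second probe of the same gene is another measure of that gene, and whether both probes read the same transcripts was not tested. Over all 2046 genes with at least 2 kept probes, the 2 brightest correlated over the 6 pools at a median of 0.268, and over the 20 of them with an SD of 0.5 or more at a median of 0.948. In 14 of these 20 it was over 0.8, as in Slc7a14 (0.995), Sema5a (0.993), Acta2 (0.963) and Cd74 (0.963). The other 6 were Armc9 (-0.65), Hnrnpa2b1 (-0.16), Mrgpra2b (0.325), Esd (0.348), Gmip (0.599) and Rmdn3 (0.681), in which the SD of the second probe was 0.105 to 0.435. The brighter probe chose these genes, so only the second is a separate readout.

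A single pool stood apart from the other 5 in 485 genes (5.79%), where the gap to the nearest other pool was more than Dixon's 95% critical value as a share of the range, of which 16 had an SD of 0.5 or more. Pool 5 was that pool in 162 genes, in 86 of them as the highest and in 76 as the lowest. Pool 1 was it in 43, pool 2 in 46, pool 3 in 109, pool 4 in 67 and pool 6 in 58. Pool 5 was also the array with the fewest detected probes.

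Levels on the first chip (pools 1 to 3) were set against those on the second (pools 4 to 6) probe by probe with limma. None of 11782 probes passed a Benjamini-Hochberg adjusted p under 0.05 (0%), the smallest adjusted p was 0.117, and 661 probes had an unadjusted p under 0.05. With array weights 2 probes passed, with an intensity trend 1 and with an offset of 50 in the background correction 1. Without pool 1, which leaves 2 pools on the first chip, 10 passed. The smallest p was that of Angptl7, a secreted angiopoietin-like protein, at 7.18, 6.79 and 7.43 on the first chip, against 8.55, 8.62 and 8.64 on the second (log2 difference -1.47, SE 0.157, limma adjusted p = 0.117). Slc13a4 followed with -0.96 (SE 0.122, limma adjusted p = 0.224) and Cd163 with -0.91 (SE 0.133, adjusted p = 0.224), and Ptgds had -1.89 (SE 0.348, adjusted p = 0.669). Without overlap between the chips, 508 genes (6.06%) were higher on the first and 407 (4.86%) lower. A difference between 3 and 3 pools that misses the threshold does not show equal levels.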

How the data were processed

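The 6 control samples were analysed alone. Intensity values, 1 per probe and array, were deposited as bead summaries from GenomeStudio, per the submitters' processing notes, which name no version. They were neither background-subtracted nor normalized, with array minima of 42.9 to 45.8. Per the file headers, each deposited array also has a column of detection p-values. A deposited table of processed intensity values, made by steps not stated in the sources used here, ranked probes exactly as the raw table did (Spearman correlation 1) and served as an alternative. Intensity columns were matched to samples by the array identifier in the description label, and each detection column by its place to the right. Processed columns carried the sample identifier, and titles gave the group and replicate.

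From the intensities, log2 values were computed with neqc of limma 3.58.1 under R 4.3.3 (normexp background from the detection p-values, offset 16, quantile normalization), on the control arrays only. Probes with detection p under 0.05 in all 6 controls were kept. Symbols came from the platform annotation (23978 probes with 1 symbol, 0 with several, 1719 not listed, with 675 kept probes unnamed), 23962 matched to RefSeq names for GRCm38.p6. Chip differences were fitted with lmFit and eBayes; all other values are descriptions without a test. The code was tested on simulated data. Array number limits the precision.

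Members and gene lists were chosen with earlier results of these data known. Genes named were a fixed set of textbook markers, the brightest, the most and the least variable genes, the 3 brightest and 2 most variable of each list, of which the text gives a selection, and genes outside this (such as Osmr, Il31ra, Nppb, Mrgpra3, Eif2s3y, Kdm5d, Hbb-b2, Mgat3, Chrna6, Chrnb3, Myo7a, chip genes and the second probes) chosen after their values were seen. Alternatives were another normalization, offset, detection filter, probe rule, the processed values, spread within chips, and each replicate left out.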

Additional observations from a re-analysis of the deposited data

Results flagged for a closer look

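Of 107 named genes and 28 list means tested over the 6 pools, 17 had 1 pool whose gap to the nearest other, divided by the range of all 6, exceeded Dixon's 95% critical value for 6 samples. Chance flags about 1 in 20 groups, and 5.79% of all genes met the same rule. Many of these genes were named for their spread or after their values were seen, so their number is not evidence of a pattern.

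Pool 5 stood alone as the highest for Actg2 (gap over range 0.814), Acta2 (0.749) and Hba-a1 (0.707), and as the lowest for Calcb (0.736) and Calb2 (0.644). Pool 6 was alone as the lowest for Hbb-bt (0.843), Cops8 (0.711), Mrgpra2b (0.706), Myo7a (0.661) and Mag (0.657). Pool 3 was the lowest for Apod (0.691), the complement gene C1qb (0.669) and the mean of the nerve injury list (0.638). Pool 1 was the highest for Usp18 (0.710) and the lowest for Tuba1b (1.000), where the other 5 arrays held the same value, the top of the quantile-normalized scale. Pool 4 was the lowest for B2m (0.634), and pool 2 was the highest for Cd3e (0.642). What set these pools apart was not tested.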

How the results depend on the processing

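The number of genes with an SD of 0.5 or more was 108 and became 58 with an offset of 50 and 186 with the processed values, and it stayed within 1.5 times of 108 in the other alternatives. The number of probes called between chips was 0 and became 1 with an offset of 50, 2 with array weights and 1 with an intensity trend. Leaving out 1 control replicate gave 0 to 10 probes, with 10 from pool 1 alone. The median correlation of 2 probes was 0.268 with all pools, 0.273 to 0.312 when 1 pool was left out, and 0.282 with deviations from the mean of the own chip; for genes with an SD of 0.5 or more it was 0.948, and 0.924 to 0.954 when 1 pool was left out. The cause was not tested. In all 14 settings the median SD of the pan-neuronal list (0.624 to 0.857 times that of all genes) and of oxidative phosphorylation (0.795 to 0.984 times) lay under that of all genes, and those of macrophages (1.65 to 2.57 times), MHC class II and antigen presentation (2.08 to 2.97) and neutrophils (2.95 to 5.88) above it. These ratios do not take level into account. Within genes of like level, the SD had a median percentile of 48.0 for the pan-neuronal list and 57.6 for oxidative phosphorylation. It was 93.8 for macrophages, 96.5 for MHC class II and antigen presentation and 99.5 for the 3 neutrophil genes. Median level percentiles of lists moved by more than the spread between pools in 51 comparisons and did not in 257. No paired analysis was possible because the 6 samples form 1 group and no test sets groups that share replicate numbers against each other. Probes near background have only a bound, and signal over background limits the dim immune and smooth muscle genes.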
